A study of Xenopus laevis with 6 samples.

Results

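Molecular chaperones were described in RNA from the animal and the vegetal pole of the *Xenopus laevis* embryo at the 8-cell stage. The set held every gene whose annotated symbol begins with hsp, dnaja, dnajb, dnajc, pfdn or fkbp, or with cct and a digit, together with *tcp1*, *stip1*, *bag1* to *bag3*, *calr* and *canx* where the array annotation names them. This gave 105 of the 11303 genes that the annotation names from probe sets with 1 symbol, and they were measured by 138 probe sets. Values are the deposited intensities, in the arrays' arbitrary linear units. The endings .L and .S mark the homeologs, the gene copies from the ancestral subgenomes of this allotetraploid frog, and homeologs were counted as separate genes. Another 3 probe sets carried several symbols, at least 1 of them of a chaperone, and were not used.

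One group was 3 samples of animal blastomeres, and the other was 3 samples of the part of the vegetal blastomeres nearest the pole, with their equatorial part cut off and discarded. All embryos came from hormone-induced matings of 2 pairs of adults, were freed of jelly in cysteine and were fixed in ethanol and acetic acid before dissection. The labels name no strain or genotype and do not say whether replicates were separate clutches or pools, so the p-values reflect no more than the spread among these 6 samples, which may be technical. The dissection was designed to make the difference between the poles as large as possible, in order to find transcripts enriched at the animal pole.

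Chaperones bind proteins that are not yet folded and keep them from aggregating. HSP70 proteins hold and release short stretches of a client in a cycle driven by ATP, in which J proteins (the DNAJ families) deliver the client and stimulate ATP cleavage, and nucleotide exchange factors, among them the HSP110 proteins, reset the cycle. HSP90 proteins take over many signalling proteins from HSP70, the ring-shaped chaperonin CCT folds actin and tubulin, prefoldin hands these clients to it, and FKBP proteins turn the bonds before proline. At the 8-cell stage the embryo's own genome is still silent, so RNAs of this machinery come almost wholly from the egg.

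The dissection showed in RNAs known for each pole. Their lists were chosen with earlier results of these data known, so they are no independent check of it. All 11 measured genes of the vegetal list were higher in vegetal samples, and their summed intensity was 1924 to 2313 on animal and 30040 to 37370 on vegetal arrays. All 5 genes of the animal list were higher in animal samples, with sums of 4958 to 5739 on animal and 2397 to 2682 on vegetal arrays. Of 12 blood marker genes, 2 exceeded the highest unspiked control on at least 1 array, and the list summed to at most 27.6 on animal and 28.9 on vegetal arrays. Of 9 genes listed as follicle and connective cell markers, 3 did so, namely *vim.L*, *vim.S* and the steroid enzyme gene *cyp17a1.L*. The others, *cyp19a1.L*, *hsd3b1.L*, *fshr.L* and the collagen genes, did not on any array. *cyp17a1.L* read 634 ± 13 in animal and 2027 ± 141 in vegetal samples (SD, n = 3 each), and which cells its RNA came from was not tested. That list summed to 705 to 739 on animal and 1952 to 2214 on vegetal arrays, most of it from *cyp17a1.L*. By contrast *vim.L* read 70 ± 8 in animal and 47 ± 4 in vegetal samples, and *vim.S* 12 ± 5 and 11 ± 7. The part of this list in the results was not tested. The ratio of the 3' to the 5' control probe set of *gapdh*, a measure of RNA integrity and amplification, was 4.18 ± 0.19 in animal and 7.35 ± 0.41 in vegetal samples (SD, n = 3 each). It moved with the groups of every comparison below, and its part in them was not tested.

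Of the 105 chaperone genes, 90 were bright enough to be tested, each through its brightest probe set, and 15 fell under the intensity filter. None of the 90 passed that filter with either group below the unspiked controls on all 3 arrays. *dnajb13.S*, however, passed it through its animal readings, with only 1 of its 3 vegetal arrays above the controls. It is counted below among the genes called as animal and among those of at least 2-fold. Differences were tested with limma's moderated test, whose p-values were adjusted by Benjamini-Hochberg over the 19524 probe sets that entered it, and a gene was called below 0.05. Of the chaperones, 24 were called with the higher level in animal samples and 19 with the higher level in vegetal samples. These are 26.7% and 21.1% of the tested chaperones, beside 27.1% and 23.7% of all 8026 tested genes. In either direction 43 were called, or 47.8%, beside 50.9%, so the set as a whole was called about as often as genes at large. A difference of at least 2-fold with a call was found for 12 chaperones, or 13.3%, beside 14.5% of all genes. Of these 12, 7 were higher at the animal pole, where 7.95% of all genes were, and 5 at the vegetal pole, where 6.57% were. For 50 of the 90, or 55.6%, every array of one group was above every array of the other, beside 58.3% of all genes. The median difference was 0.02 (log2, animal minus vegetal) for chaperones and 0.03 for all genes. The vegetal samples were parts of blastomeres, so the differences are between pieces of embryo and not between whole cells. Intensities are relative to each array's scaling, so the amount of an RNA per piece was not measured.

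The split between the poles followed the scaling of the arrays for chaperones as it did for all genes. After centring each array on its median, 17 chaperones were called as animal and 28 as vegetal, beside 19.7% and 32.8% of all genes. After scaling to the spiked hybridization controls the counts were 29 and 8, beside 34.7% and 10.3%. The median of all genes moved from 0.03 (log2) to -0.12 and to 0.27 under these scalings, so small differences are relative to the scaling used.

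**Figure D1:**
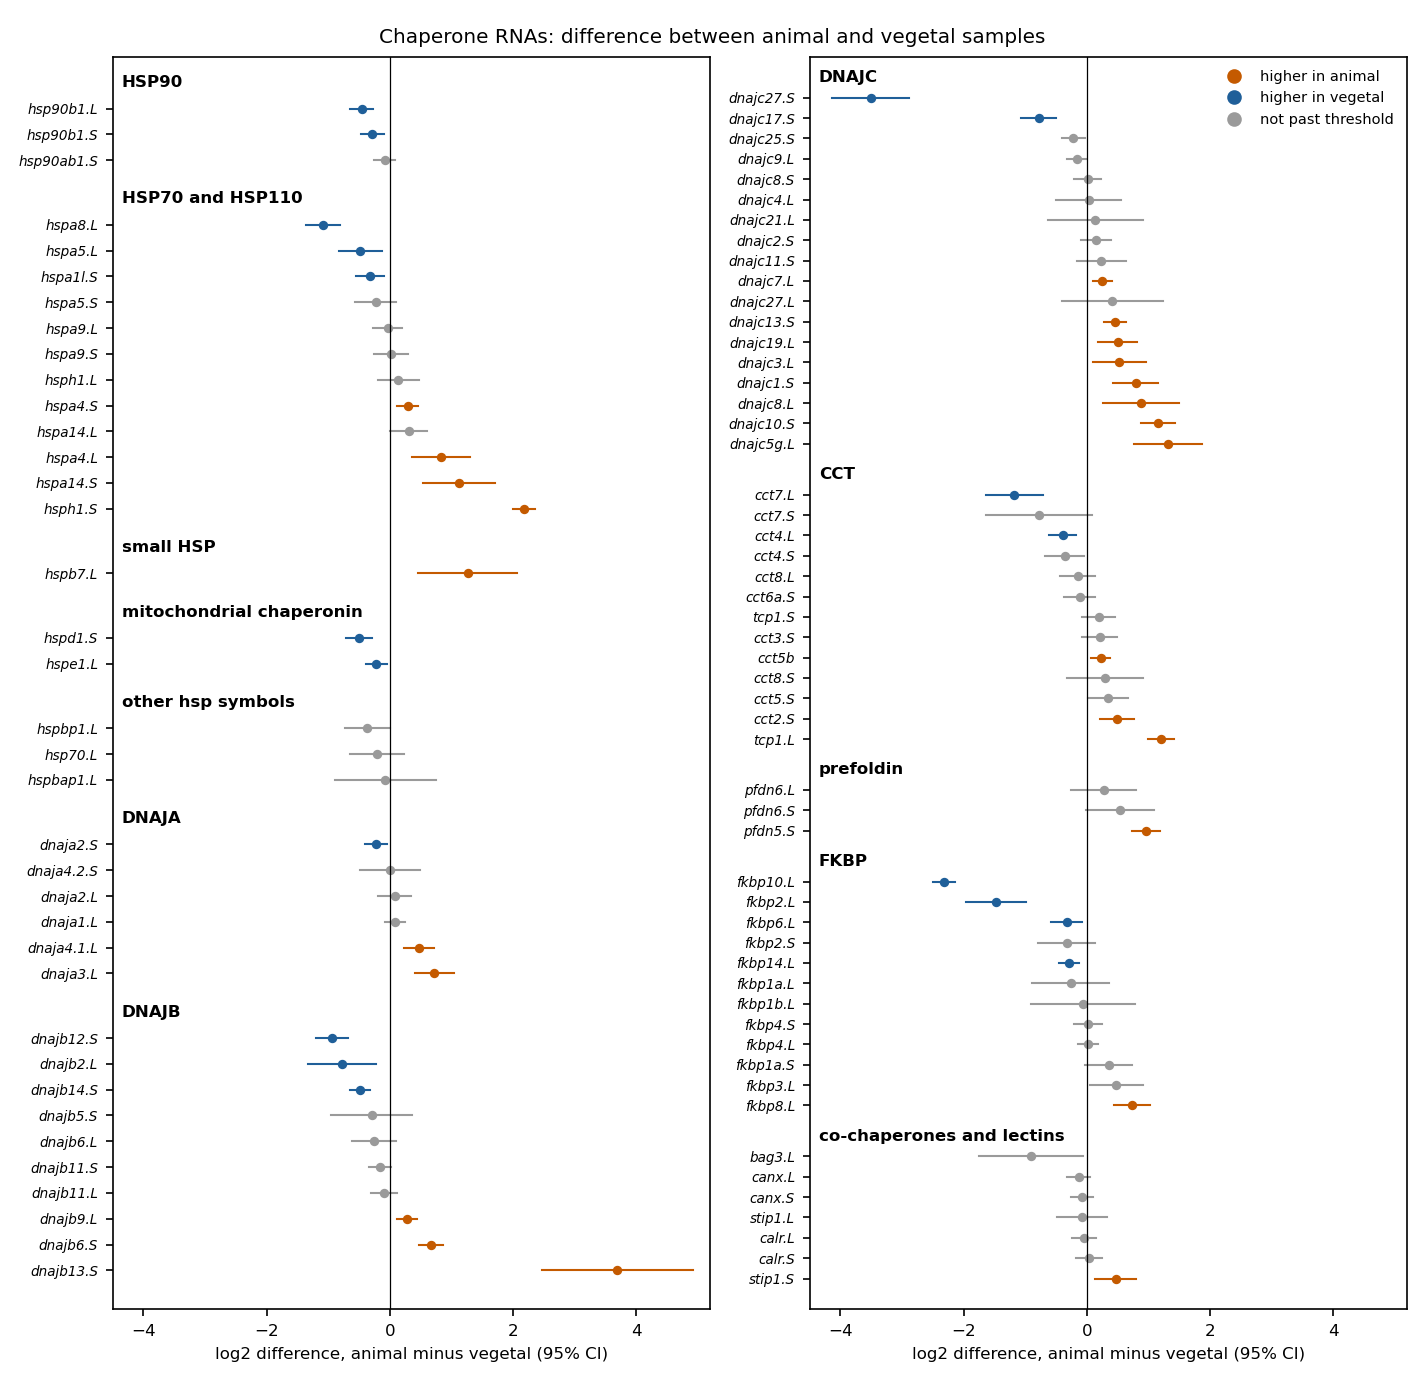
Log2 difference, animal minus vegetal, with its 95% confidence interval for the 90 tested chaperone genes, grouped by family and ordered within each. Orange points are the 24 genes higher in animal samples, blue points the 19 higher in vegetal samples and grey points the genes past neither threshold; every family with over 3 tested genes except the co-chaperones and lectins holds both orange and blue points.

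By the brightest probe set of each gene, HSP90 RNAs lay close to equal or leaned to the vegetal pole. *hsp90ab1.S*, the constitutive cytosolic HSP90, read 2283, 2679 and 2760 on the animal arrays and 2893, 2584 and 2690 on the vegetal arrays. The groups overlapped, and the difference was -0.08 (log2, 95% interval -0.26 to 0.09; adjusted p = 0.411). Its other 3 probe sets gave differences of 0.01, 0.34 and 0.71 (log2), of which the dimmest was called as higher in animal samples (adjusted p = 0.000562), so the gene's value depends on the probe set. The mean of its probe sets was called as higher in animal samples at 0.24 (adjusted p = 0.0463), as was the brightest one after quantile normalization, at 0.13 (adjusted p = 0.0485).

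Both copies of *hsp90b1*, the HSP90 of the endoplasmic reticulum, were higher in vegetal samples. *hsp90b1.L* read 453, 446 and 437 on the animal arrays and 662, 615 and 562 on the vegetal arrays. Every vegetal array was above every animal one, a 1.37-fold difference (1.21 to 1.56; adjusted p = 0.000439). *hsp90b1.S* was 1.22-fold higher in vegetal samples (1.07 to 1.38; adjusted p = 0.0116), a call that ended without animal replicate 2 (0.0657) and without vegetal replicate 3 (0.0555). Under spiked-control scaling neither copy passed (adjusted p = 0.304 for .L and 0.845 for .S).

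Within the HSP70 system, 3 of 6 exchange factor genes taken in by the symbol rule were called, all as higher in animal samples. Of 8 tested hspa genes for HSP70 proper, 3 were called as vegetal and 1 as animal. Both groups are small, and of all genes 27.1% were called as animal and 23.7% as vegetal. *hsph1.S*, which encodes the exchange factor HSP105 of the HSP110 class, had the largest animal difference among chaperones that were above the controls on all arrays. It read 976, 1088 and 1140 on the animal arrays and 238, 233 and 236 on the vegetal arrays. The groups were far apart, with a 4.53-fold difference (3.98 to 5.15; adjusted p = 3.12e-11). *hspa4.L* and *hspa4.S*, copies of another HSP110-class factor, were 1.78-fold (1.28 to 2.47) and 1.22-fold (1.08 to 1.38) higher in animal samples (adjusted p = 0.00573 and 0.00808). The call of *hspa4.S* was made by each of its 3 probe sets and ended after median centring (adjusted p = 0.216). The dimmest of these sets, at 0.54 (log2), is marked as matching several transcripts. Apart from that mark it shares its name with the probe set of *hspa4.L*. *hsph1.L* was at 0.14 (log2) and did not pass (adjusted p = 0.468).

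The symbol rule took in 6 tested genes for HSP70 exchange factors, a grouping made after the values were seen. Of these 3 were called as animal, beside 27.1% of all genes, and 3 did not pass. Besides *hsph1.L* the latter were *bag3.L*, at -0.90 (log2; adjusted p = 0.07) with groups that did not overlap, and *hspbp1.L*, at -0.37 (log2; adjusted p = 0.0845). Exchange factors outside the symbol rule went both ways: *sil1.L*, of the endoplasmic reticulum, was at 0.61 (log2; adjusted p = 7.22e-05), and the mitochondrial *grpel1.L* and *grpel2.L* were at -0.29 and -1.87 (adjusted p = 0.0051 and 1.14e-07). *hyou1.S*, of the HSP110 class in the endoplasmic reticulum, was at 0.55 (log2) and did not pass (adjusted p = 0.0634). *bag3.L*, *hspbp1.L*, *sil1.L*, *grpel1.L* and *hyou1.S* were named after their values were seen. *hspbp1.L* was called as higher in vegetal samples with median centring (adjusted p = 0.0142), with quantile normalization (0.0193) and without vegetal replicate 3 (0.00989).

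Among the 8 tested hspa genes for HSP70 proteins proper, 3 had more RNA in vegetal samples, 1 in animal samples and 4 did not pass. Of all genes 23.7% were called as vegetal and 27.1% as animal. A further HSP70 gene under an older symbol, *hsp70.L*, was counted apart by the family rule and did not pass, at -0.21 (log2; adjusted p = 0.402). *hspa8.L*, the constitutive cytosolic HSC70 that folds new proteins, read 149, 110 and 129 on the animal arrays and 244, 293 and 283 on the vegetal arrays. The lowest vegetal array was well above the highest animal one, a 2.13-fold difference (1.76 to 2.58; adjusted p = 5.39e-06). *hspa1l.S*, another cytosolic HSP70, was 1.25-fold higher in vegetal samples (1.07 to 1.47; adjusted p = 0.0179). *hspa5.L*, the HSP70 of the endoplasmic reticulum also called BiP, was 1.40-fold higher there (1.09 to 1.78; adjusted p = 0.023). Neither call was stable to single arrays. That of *hspa1l.S* ended without animal replicate 3, vegetal replicate 2 or vegetal replicate 3 (adjusted p = 0.0537, 0.076 and 0.0692). That of *hspa5.L* ended without animal replicate 1 or 3 or vegetal replicate 2 or 3 (0.0601, 0.0882, 0.086 and 0.0742). Both also ended under spiked-control scaling (adjusted p = 0.744 and 0.419). The value of *hspa5.L* came from a probe set marked as matching several transcripts. Its other probe set, without that mark, was at -0.34 (log2) and did not pass (adjusted p = 0.15). The other BiP copy *hspa5.S*, named after its values were seen, was at -0.23 (log2) with overlapping groups and did not pass (adjusted p = 0.231).

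The animal exception was *hspa14.S*, an HSP70-like protein that works at the ribosome in mammals, at 36.9, 34.2 and 24.3 on the animal arrays and 16, 11.3 and 16.5 on the vegetal arrays. This was a 2.17-fold difference of a dim probe set (1.45 to 3.27; adjusted p = 0.00325). The mitochondrial HSP70 genes *hspa9.L* and *hspa9.S*, named after their values were seen, were at -0.03 and 0.02 (log2). Their 95% intervals of -0.27 to 0.20 and -0.25 to 0.30 lay within 1.5-fold of equality under the deposited scaling.

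The mitochondrial chaperonin and its lid were both slightly higher in vegetal samples. *hspd1.S*, or HSP60, read 273, 246 and 234 on the animal arrays and 379, 336 and 351 on the vegetal arrays. The groups did not overlap and differed 1.42-fold (1.22 to 1.64; adjusted p = 0.000657), whereas its dimmer probe set was at -0.10 (log2) and did not pass (adjusted p = 0.459). *hspe1.L*, the lid subunit HSP10, was 1.16-fold higher (1.03 to 1.31; adjusted p = 0.039). Under spiked-control scaling the call of *hspd1.S* ended (adjusted p = 0.285) and *hspe1.L* turned to 0.023 (log2; adjusted p = 0.917). The call of *hspe1.L* also ended without any 1 array other than vegetal replicate 1 (adjusted p = 0.0518 to 0.146), with the replicate block (0.0572) and without the mean-variance trend (0.117).

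RNAs of small heat shock proteins, which bind unfolding proteins without using ATP, were near background in both groups for all genes but *hspb7.L*. Of 6 genes with such symbols 5 fell under the filter, and over all 15 filtered chaperones the highest single reading was 12.2, with 9 of the 15 not above the unspiked controls on any array. The stress-inducible HSP70 gene *hspa1a.S* was among those 9, as were *hspb1.L*, *hspb1.S*, *hspb6.L* and *hspb8.L*, all named after their values were seen. The remaining small HSP gene, *hspb7.L*, read 20.4, 15.6 and 19.1 on the animal arrays and 5.8, 5.7 and 13.3 on the vegetal arrays. It was above the controls on 2 of the 3 vegetal arrays and was 2.39-fold higher in animal samples with each array's value set no lower than its highest control (adjusted p = 0.0111 on the values without that floor). The call ended with no filter on dim probe sets (adjusted p = 0.0793).

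**Figure D2:**
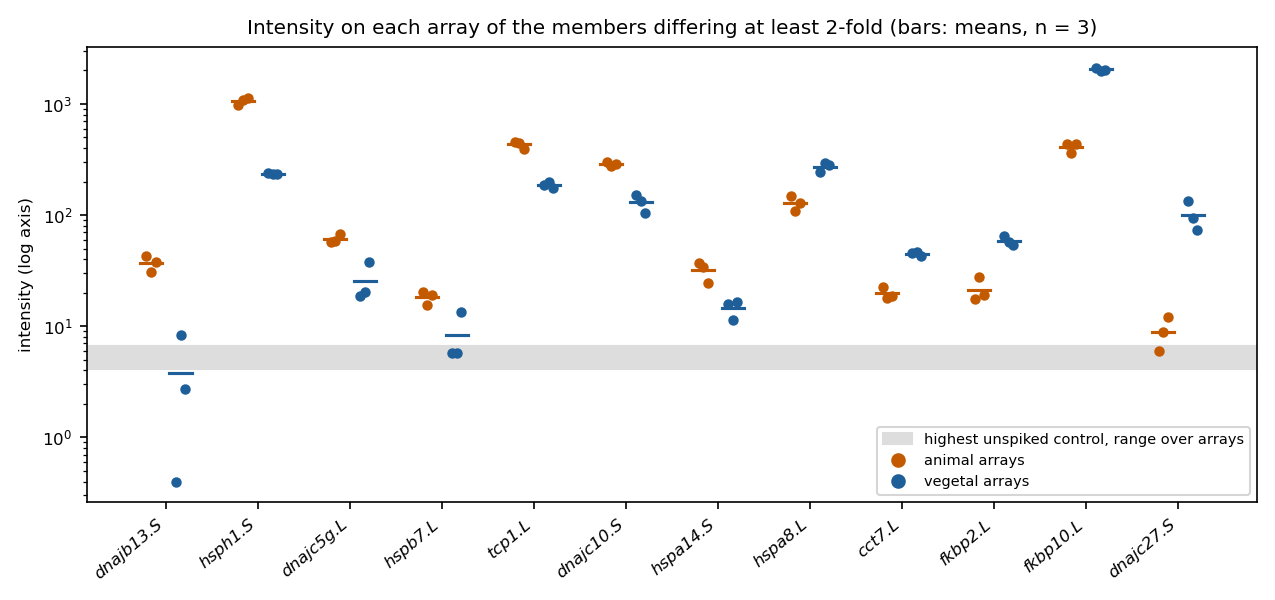
Intensity on each of the 6 arrays, on a log axis, for the 12 chaperone genes called with a difference of at least 2-fold; orange points are animal arrays, blue points vegetal arrays, short bars group means (n = 3) and the grey band the range over arrays of the highest unspiked control. The groups are apart for each gene, and *dnajb13.S* and *hspb7.L* reach the control level on vegetal arrays. The reading of *dnajc27.S* on animal replicate 1, at 6.0, also lies within the band, though above the highest control of that array (4.1).

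J proteins form the largest part of the set and went both ways. Of 34 tested DNAJ genes, 13 had more RNA in animal samples, 6 in vegetal samples and 15 did not pass, with a median of 0.11 (log2). Of all genes 27.1% were animal and 23.7% vegetal, with a median of 0.03. In the DNAJA family, which resembles the bacterial DnaJ most, *dnaja3.L*, a mitochondrial J protein, was 1.65-fold higher in animal samples (1.33 to 2.06; adjusted p = 0.000823). Its second, dim probe set was at -0.12 (log2; adjusted p = 0.799), and the mean of its probe sets did not pass (0.262). *dnaja4.1.L* was 1.39-fold higher in animal samples (1.17 to 1.65; adjusted p = 0.00324). *dnaja1.L*, the brightest of the family, was at 0.08 (log2, -0.08 to 0.25). *dnaja2.S* was 1.17-fold higher in vegetal samples (adjusted p = 0.0375), a call that ended without any 1 array other than animal replicate 1 (0.0512 to 0.133) and with the replicate block (0.0589), and turned to 0.017 (log2) under spiked-control scaling.

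In the DNAJB family the 2 genes of membrane-bound J proteins of the endoplasmic reticulum were both higher in vegetal samples. *dnajb12.S* read 129, 117 and 119 on the animal arrays and 219, 271 and 216 on the vegetal arrays. The groups were well separated, by 1.92-fold (1.61 to 2.31; adjusted p = 1.31e-05). *dnajb14.S*, its close relative, read 1747, 1897 and 1936 on the animal arrays and 2723, 2389 and 2666 on the vegetal arrays, 1.39-fold higher in vegetal samples (1.25 to 1.56; adjusted p = 8.92e-05). *dnajb2.L*, a J protein that also binds ubiquitin in mammals, was 1.71-fold higher in vegetal samples (adjusted p = 0.0215). That call ended without animal replicate 1 (adjusted p = 0.0605) and without animal replicate 3 (0.088).

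On the animal side of the family, *dnajb6.S*, which encodes a suppressor of protein aggregation, read 661, 674 and 685 on the animal arrays and 380, 464 and 427 on the vegetal arrays. All animal arrays were above all vegetal ones, a 1.6-fold difference (1.40 to 1.82; adjusted p = 1.83e-05). *dnajb13.S*, known in mammals from the radial spokes of the sperm tail, read 42.5, 30.6 and 37.8 on the animal arrays and 0.4, 8.4 and 2.7 on the vegetal arrays. Only 1 of the 3 vegetal arrays was above its highest control, so the vegetal level is hardly measured. With each array set no lower than its highest control the difference was 5.75-fold (adjusted p = 7.5e-05 on the values without that floor). Its vegetal readings averaged 3.83, under the intensity filter's 6.94, so the gene passed that filter through its animal readings. The call is therefore not independent of the filter.

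Of 18 tested DNAJC genes, 8 had more RNA in animal samples, 2 in vegetal samples and 8 did not pass, beside the same 27.1% and 23.7% of all genes. The family's median was 0.25 (log2) and that of all genes 0.03. DNAJC proteins share little beyond the J domain and serve many compartments. *dnajc10.S*, which encodes ERdj5, a disulfide reductase of the endoplasmic reticulum, read 298, 275 and 286 on the animal arrays and 150, 135 and 104 on the vegetal arrays. The groups were separate, by 2.23-fold (1.83 to 2.71; adjusted p = 3.61e-06). *dnajc5g.L*, of the cysteine string protein group, was 2.49-fold higher in animal samples (1.70 to 3.65; adjusted p = 0.00057), but its dimmer probe set was at 0.25 (log2) and did not pass (adjusted p = 0.523). *dnajc1.S*, a J protein of the endoplasmic reticulum membrane, was 1.73-fold higher in animal samples (1.35 to 2.22; adjusted p = 0.00111). *dnajc7.L*, which binds both HSP70 and HSP90, was the brightest of the family at 1536 ± 6 in animal and 1289 ± 49 in vegetal samples (SD, n = 3 each). Both of its probe sets were higher in animal samples, by 0.25 and 0.21 (log2; adjusted p = 0.00671 and 0.0286), and the call of the brightest ended after median centring (0.353).

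The strongest vegetal difference among all chaperones was that of *dnajc27.S*, which encodes a Rab-like GTPase with a J domain. It read 6.0, 8.8 and 12 on the animal arrays and 134.6, 94.9 and 73.0 on the vegetal arrays. The animal readings were above the controls but close to them, and the fitted difference was 11.4-fold (7.36 to 17.6; adjusted p = 1.27e-07). *dnajc17.S*, a nuclear J protein tied to splicing, was 1.72-fold higher in vegetal samples (1.41 to 2.09; adjusted p = 0.000189). *dnajc8.L*, another splicing-associated J protein, was 1.85-fold higher in animal samples (1.20 to 2.84; adjusted p = 0.0187). That call ended without animal replicate 1 (adjusted p = 0.126) and without vegetal replicate 2 (0.0757), and after quantile normalization (0.0624).

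The CCT chaperonin is a double ring in which each ring holds 1 copy of each of 8 kinds of subunit, and all 8 kinds were represented, by 13 genes. Their RNAs did not move together: 3 genes had more RNA in animal samples, 2 in vegetal samples and 8 did not pass, with differences from -1.18 to 1.21 (log2). In either direction 38.5% were called, beside 50.9% of all genes. The median absolute difference was 0.35 (log2), beside 0.36 for all genes, so the size of the differences was that of genes at large. *tcp1.L*, the first subunit, read 457, 448 and 393 on the animal arrays and 188, 198 and 176 on the vegetal arrays. The lowest animal array was far above the highest vegetal one, and the difference was 2.31-fold (1.99 to 2.68; adjusted p = 1.22e-07). *cct7.L* read 22.7, 18.1 and 18.8 on the animal arrays and 45.3, 46.5 and 42.6 on the vegetal arrays. It was thus 2.26-fold higher in vegetal samples (1.64 to 3.12; adjusted p = 0.00035), at an intensity above the controls on every array.

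The other called CCT genes differed less. *cct2.S* was 1.41-fold higher in animal samples (1.16 to 1.70; adjusted p = 0.00468) by a probe set marked as matching several transcripts. A second of its 3 probe sets was called the same way at 0.57 (log2), and the third was at 0.16 and did not pass (adjusted p = 0.487). *cct5b*, at 1405 ± 39 in animal and 1202 ± 62 in vegetal samples (SD, n = 3 each), was 1.17-fold higher in animal samples (adjusted p = 0.0173). Its call ended without animal replicate 2 (adjusted p = 0.0803), without vegetal replicate 3 (0.0666) and after median centring (0.492). Vegetal samples had 1.31-fold more *cct4.L* (1.13 to 1.53; adjusted p = 0.00535), and it did not pass under spiked-control scaling (0.575).

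Of the 8 CCT genes that did not pass, the values were spread around 0. *cct3.S*, *cct5.S*, *cct8.S* and *tcp1.S* were at 0.21, 0.35, 0.29 and 0.19 (log2). *cct6a.S*, *cct8.L*, *cct4.S* and *cct7.S* were at -0.12, -0.15, -0.36 and -0.78. The groups of *cct4.S* did not overlap, and its call was gained without vegetal replicate 1 (adjusted p = 0.0212), with median centring (0.00864) and with quantile normalization (0.0109). That of *cct7.S* was gained without vegetal replicate 1 (adjusted p = 0.0483) and with quantile normalization (0.0467). That of *cct5.S* was gained under spiked-control scaling (adjusted p = 0.0351), with no filter (0.0237) and without the trend (0.0257). The value of *cct5.S* came from a probe set marked as matching several transcripts. Its 4 tested probe sets were at 0.35 to 0.60 (log2). Of these 1, likewise so marked, was called as animal, at 0.41 (adjusted p = 0.0497).

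**Figure D3:**
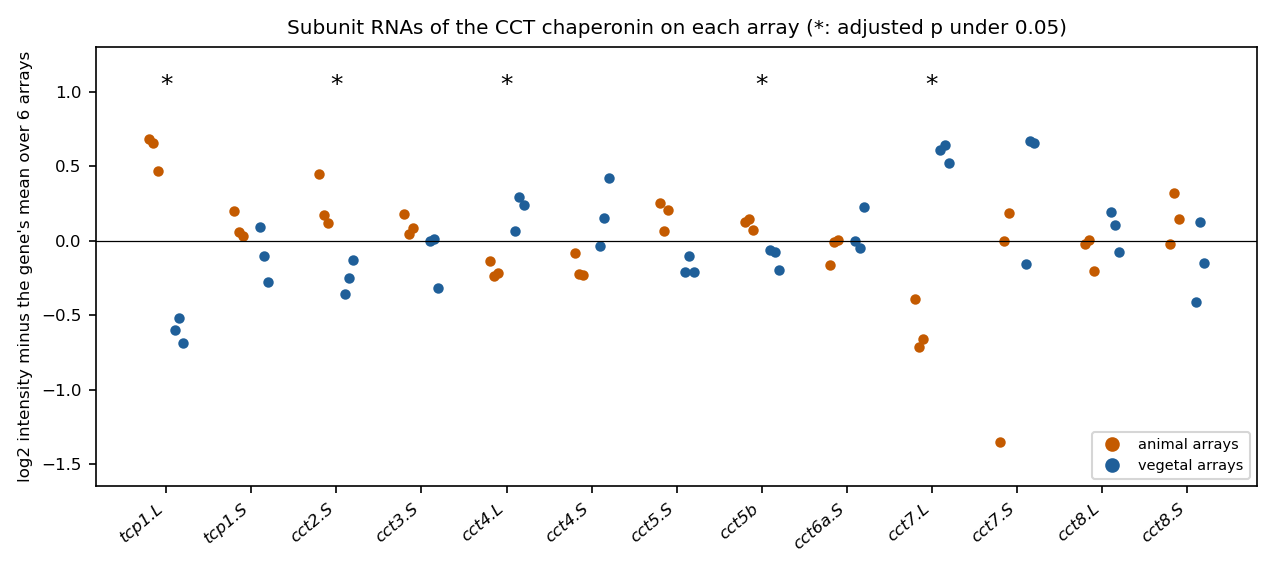
Log2 intensity of each CCT subunit gene on the 6 arrays, minus that gene's mean, with animal arrays in orange, vegetal arrays in blue and an asterisk at the 5 genes past the threshold. *tcp1.L* is the subunit gene furthest to the animal side at 1.21 (log2) and *cct7.L* the furthest to the vegetal side at -1.18, and most others lie close to 0.

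Prefoldin, a jaw-shaped complex that holds new actin and tubulin chains for CCT, was represented by 2 of its kinds of subunit under the pfdn symbols. *pfdn5.S* read 383, 369 and 355 on the animal arrays and 214, 171 and 187 on the vegetal arrays, 1.94-fold higher in animal samples (1.66 to 2.27; adjusted p = 2.58e-06). Its second probe set showed the same direction, at 1.64 (log2; adjusted p = 1.17e-07). *pfdn6.L* and *pfdn6.S* were dim, at 0.27 and 0.54 (log2), and did not pass (adjusted p = 0.368 and 0.0956), though *pfdn6.S* did under spiked-control scaling (0.0336). Prefoldin subunit 3 goes by the symbol *vbp1* and was part of a separate list of chaperone machinery outside the symbol rule. *vbp1.L* read 527, 453 and 378 on the animal arrays and 1236, 1182 and 1256 on the vegetal arrays. It was 2.73-fold higher in vegetal samples (2.34 to 3.19; adjusted p = 2.52e-08), opposite in direction to *pfdn5.S*. The brighter copy *vbp1.S*, named after its values were seen, was 1.43-fold higher in vegetal samples (1.24 to 1.64; adjusted p = 0.000352).

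FKBP genes held the largest vegetal difference of a bright chaperone. *fkbp10.L*, whose product works on collagen chains in the endoplasmic reticulum of mammals, read 435, 363 and 433 on the animal arrays and 2117, 1973 and 2037 on the vegetal arrays. The groups were 4.99-fold apart (4.39 to 5.67; adjusted p = 1.41e-11), and the call held under every alternative tried, at -2.47 to -2.08 (log2). *fkbp2.L*, another FKBP of the endoplasmic reticulum, was 2.79-fold higher in vegetal samples (1.99 to 3.91; adjusted p = 7.03e-05) by its brighter probe set. Its dimmer one was at 0.04 (log2) and did not pass (adjusted p = 0.935).

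Of the 12 tested FKBP genes, 4 had more RNA in vegetal samples, 1 in animal samples and 7 did not pass. In either direction 41.7% were called, beside 50.9% of all genes. *fkbp14.L*, likewise of the endoplasmic reticulum, read 2737 ± 146 in animal and 3337 ± 240 in vegetal samples (SD, n = 3 each). This 1.22-fold difference (1.09 to 1.36; adjusted p = 0.00504) did not pass after quantile normalization (0.188), under spiked-control scaling (0.711) or without the mean-variance trend (0.0593). *fkbp6.L*, needed in meiosis of mice, was 1.25-fold higher in vegetal samples (adjusted p = 0.0298), the 1 called chaperone whose groups overlapped. The call ended without animal replicates 2 or 3 (adjusted p = 0.147 and 0.0928) and without vegetal replicates 2 or 3 (0.0897 and 0.0709). The animal gene was *fkbp8.L*, which encodes an FKBP of the mitochondrial outer membrane, at 287, 233 and 286 on the animal arrays and 130, 178 and 180 on the vegetal arrays. It was 1.66-fold higher in animal samples (1.35 to 2.04; adjusted p = 0.000434).

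Of 7 tested genes for co-chaperones and lectin chaperones, 1 was called, or 14.3%, beside 50.9% of all genes. *stip1.S*, the adaptor HOP that links HSP70 to HSP90, was 1.38-fold higher in animal samples (1.10 to 1.74; adjusted p = 0.0191). Its call ended without animal replicate 1 (adjusted p = 0.0708), without animal replicate 2 (0.0571), without vegetal replicate 3 (0.0603), with median centring (0.0919) and with quantile normalization (0.09). The 4 genes of calreticulin and calnexin, which hold sugar-bearing proteins in the endoplasmic reticulum, did not pass by their brightest probe sets, at -0.13 to 0.04 (log2). The dimmer probe sets of *calr.S* and *canx.L* were called as vegetal, at -0.47 and -0.40 (log2; adjusted p = 0.000267 and 0.0231). *canx.S*, the brightest, read 2265, 2340 and 2710 on the animal arrays and 2651, 2338 and 2710 on the vegetal arrays, and the groups overlapped. After quantile normalization it was called as higher in animal samples, at 0.15 (log2; adjusted p = 0.0143).

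By compartment, a grouping made after the values were seen and therefore not tested, 20 genes of the endoplasmic reticulum were tested. Of these 8 had more RNA in vegetal samples, 4 in animal samples and 8 did not pass, with a median of -0.19 (log2), beside 23.7% and 27.1% of all genes. The vegetal ones were both *hsp90b1* copies, *hspa5.L*, *dnajb12.S*, *dnajb14.S*, *fkbp2.L*, *fkbp10.L* and *fkbp14.L*. Under spiked-control scaling the calls of both *hsp90b1* copies, *hspa5.L* and *fkbp14.L* ended, and the other vegetal ones kept theirs. The animal ones were all J proteins: *dnajc1.S*, *dnajc10.S* and, named after their values were seen, *dnajb9.L* and *dnajc3.L*. The calls of *dnajc1.S* and *dnajc10.S* held under every alternative tried, median centring among them. Those of *dnajb9.L*, at 0.28 (log2; adjusted p = 0.00719), and *dnajc3.L*, at 0.53 (adjusted p = 0.0382), were not followed gene by gene under the alternatives. Of 7 tested mitochondrial chaperone genes, 2 were called as animal, 2 as vegetal and 3 did not pass.

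Homeolog pairs allow a comparison in which the scaling of an array cancels, since both copies are read on the same array. Both copies were tested for 22 chaperone pairs, and the log2 difference between .L and .S was compared between the animal and vegetal samples. It differed for 7 pairs (limma moderated test on the within-array differences, Benjamini-Hochberg adjustment over 1357 pairs), or 31.8%, beside 43.6% of all pairs. The count was 4 without animal replicate 3, 4 without vegetal replicate 2 and 5 or 6 without each of the other arrays. These counts are not all of the same pairs. Without animal replicate 1 the count took in *cct7* (adjusted p = 0.0461) and without vegetal replicate 1 *fkbp1a* (0.0256), neither among the 7. The count was also 4 with no filter on dim probe sets. Whether probes of one copy also bind the other was not tested.

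For *hsph1* the .S copy was at 2.18 (log2, animal minus vegetal) and the .L copy at 0.14. The copies differed by 4.11-fold in their animal to vegetal ratio (3.02 to 5.58; adjusted p = 0.000272). For *tcp1* the .L copy was at 1.21 and the .S copy at 0.19, 2.02-fold apart (1.65 to 2.47; adjusted p = 0.000859). For *dnajc27* the .S copy was at -3.51 and the .L copy, which was below the controls on 1 array, at 0.41 (adjusted p = 0.000304). For *dnajb6* the .S copy was at 0.67 and the .L copy at -0.26 (called as vegetal with quantile normalization, adjusted p = 0.0465), 1.91-fold apart (1.35 to 2.69; adjusted p = 0.0116). These 4 pairs passed under each alternative in which they were tested.

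The remaining called pairs were *fkbp2*, *dnajc8* and *stip1* (adjusted p = 0.0199, 0.0377 and 0.0405), and each lost its call in at least 5 of the alternatives. *fkbp2* ended without animal replicate 1 or 3 or vegetal replicate 1 or 2, *dnajc8* without any 1 array other than vegetal replicate 3, and *stip1* without animal replicate 2 or 3 or vegetal replicate 2 or 3. Without single arrays their adjusted p reached 0.0653, 0.0998 and 0.118. With the probe sets of *fkbp2.L* averaged, the animal minus vegetal difference of .L less that of .S was -0.39 (log2, adjusted p = 0.355), against -1.15 by the brightest. The call of this pair thus depends on the probe set. Of the 15 pairs that did not pass, 8 had a 95% interval that kept the animal to vegetal ratios of the copies within 1.5-fold of one another. Examples were *fkbp4* at 0.01 (log2, -0.30 to 0.31) and *cct4* at -0.03 (-0.33 to 0.26). This concerns the ratios and not the levels of the copies.

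**Figure D4:**
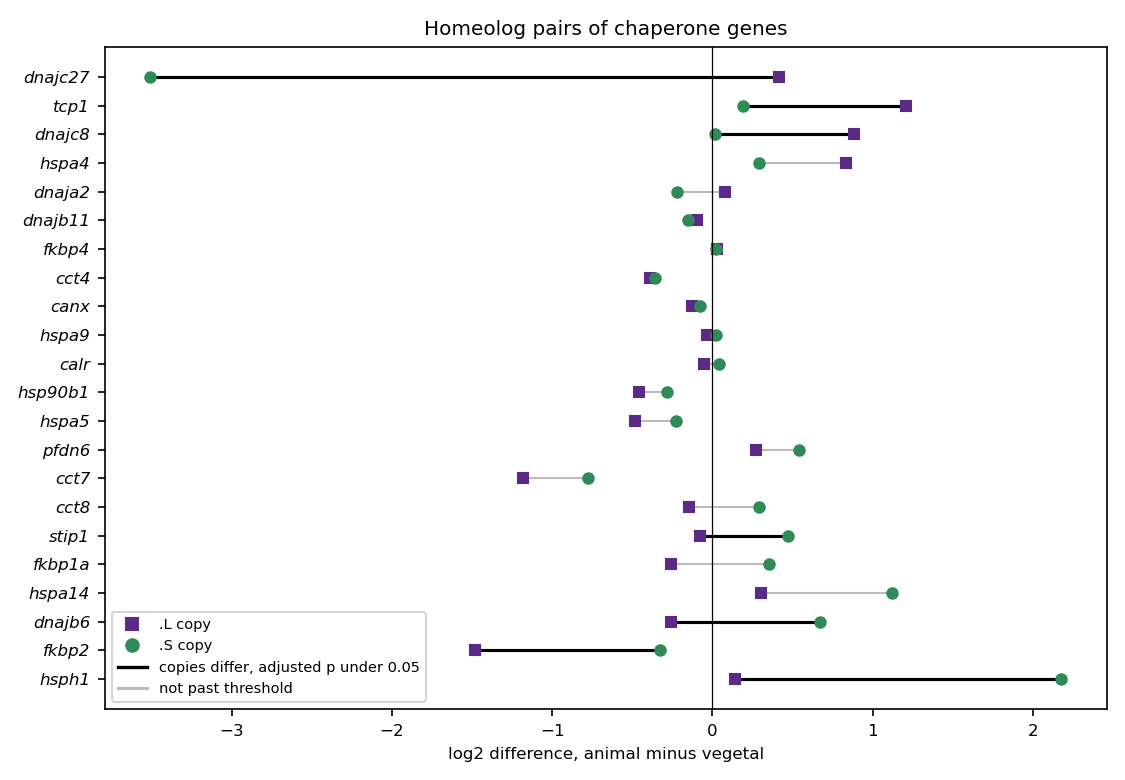
Log2 difference, animal minus vegetal, of the .L copy (square) and the .S copy (circle) of 22 chaperone homeolog pairs, ordered by the difference between copies. Black lines mark the 7 pairs whose copies differed past the threshold, with *dnajc27* and *hsph1* the widest, and grey lines the other 15.

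Several probe sets were tested for 17 chaperone genes. In 0 of these were probe sets called in opposite directions, beside 7.33% of all 1692 such genes. In 3 all probe sets were called one way, namely *dnajc7.L*, *hspa4.S* and *pfdn5.S*, and in 4 no probe set was called. The shares of all genes for these last counts were not computed, so the counts are not read as a trait of chaperones. The sets of *hspa4.S* and of *pfdn5.S* each include one marked as matching several transcripts. By probe set rather than gene, 52.2% of all those tested were called in either direction. For 36 of the 90 chaperones, or 40%, the 95% interval lay within 1.5-fold of equality, beside 38.5% of all genes.

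A list of other folding machinery outside the symbol rule, chosen like the set itself with earlier results of these data known, held 75 measured genes, of which 71 were tested. In it 11 genes had more RNA in animal samples, 18 in vegetal samples and 42 did not pass, with a median of -0.01 (log2). Of all genes, 27.1% were called as animal and 23.7% as vegetal, with a median of 0.03. After median centring the list's counts were 8 and 27, beside 19.7% and 32.8% of all genes, and under spiked-control scaling 16 and 8, beside 34.7% and 10.3%. The largest vegetal differences were those of *sdf2l1.S*, a partner of BiP in the endoplasmic reticulum, at 4.52-fold (3.92 to 5.21), and *grpel2.L*, an exchange factor of mitochondrial HSP70, at 3.65-fold (2.90 to 4.59). They were followed by *vbp1.L* at 2.73-fold and *bag6.S*, a chaperone of tail-anchored proteins, at 2.52-fold (2.07 to 3.06). The largest animal differences were those of *tbca.S*, a tubulin folding cofactor, at 3.77-fold (3.14 to 4.53), and *xbp1.L*, a transcription factor of the unfolded protein response, at 3.27-fold (2.78 to 3.86). *pdia6.L*, a protein disulfide isomerase, and *tbcb.S*, another tubulin cofactor, were 1.79-fold and 1.72-fold higher in animal samples. The adjusted p of these 8 genes was at most 3.67e-05, and all 8 calls held under every alternative tried.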

How the data were processed

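Biotin-labelled amplified RNA was measured on 6 one-colour arrays. The authors deposited 1 table of linear intensity values, with a column for each array, and used GCOS, per the submitters' processing notes; its version and settings are not given in those notes as used here. Each array had a 2% trimmed mean of 150.0 and was used without further scaling. A floor of 1 was set before taking log2. The 96 control probe sets and the lowest 40% of the others by mean log2 (mean intensity under 6.94) were left out, leaving 19524. The highest of 59 unspiked control probe sets (4.1 to 6.7 per array) served as background. Precision is limited by the number of arrays.

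Gene names came from the platform annotation, which can be old: of 32539 probe sets other than controls, 15495 had 1 symbol, 279 several and 16765 none. All 105 member gene IDs matched the reference gene table (Xenopus_laevis_v10.1), with no symbol changed. Protein sequences were not used here, so a planned description of protein features was not made. A gene was represented by its brightest probe set. The test was limma's (version 3.58.1 in R 4.3.3; lmFit, then eBayes with trend), two-sided, on all 6 arrays without a block, and its script was tested on simulated data. The members, families and lists were chosen with earlier results of these data known. Genes named were, per family, those called at 2-fold or more, the brightest, up to 3 further called genes, all CCT, prefoldin and HSP90 genes, all called homeolog pairs, and up to 4 genes per direction of the other list.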

Additional observations from a re-analysis of the deposited data

How the results depend on the processing

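Of 39 named chaperones called in either direction and followed gene by gene, 21 kept call and direction under every alternative that tested them. The called *dnajb9.L* and *dnajc3.L* were not followed and are not among the 39. Alternatives were quantile, median and spiked-control scaling, no filter or a filter at 60%, log2(value + 16), no trend, the replicate block, the mean of all probe sets, and each array left out. Another, without probe sets marked as matching several transcripts, was chosen after seeing the data. Spiked-control scaling left 8 chaperones and 8 genes of the other list called as vegetal, against 19 and 18. With no filter 4 homeolog pairs were called, against 7, and without single arrays 4 to 6, not all of them among the 7. Deviations from group means correlated between arrays of one number at -0.0228 to 0.00669, so the numbers were not taken as pairs. With the replicate block 24 chaperones were called as animal and 17 as vegetal, and 6 homeolog pairs differed. Apart from *dnaja2.S*, *hspe1.L* and the *stip1* pair (limma adjusted p over 0.05), the block ended no call that was followed. Of the other list, *sil1.L*, *grpel1.L* and *vbp1.S* were likewise not followed gene by gene. Calls ended under spiked-control scaling also for *dnajb2.L* and *fkbp6.L*. With no filter they ended for *dnajb2.L*, *dnajc8.L*, *fkbp6.L*, *hspa1l.S*, *hspa5.L*, *hspb7.L* and *hspe1.L*. Without the trend they ended for *cct5b*, *dnaja2.S*, *dnajc8.L*, *fkbp14.L*, *fkbp6.L*, *hsp90b1.S*, *hspa1l.S* and *hspe1.L*. That of *hspa5.L* ended also for the mean of its probe sets and without sets marked as matching several transcripts. Direction changed with a call on either side for *canx.S* (0.15 after quantile normalization), *hsp90ab1.S* (0.13 there, 0.24 for the mean of probe sets), *dnaja2.S* (0.017) and *hspe1.L* (0.023), both under spiked-control scaling. The cause was not tested. Genes near the unspiked controls, such as *dnajb13.S*, have no measured size.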
